A study of Mus musculus with 12 samples.

Results

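The livers of 4 mice with floxed Atg7 and an Olig1-Cre allele were compared with the livers of 4 Cre-negative mice with floxed Atg7, across all genes measured. The arrays were chosen by their source name, Olig1-Cre:Atg7 FF on one side and Atg7 FF (Alb Control) or Atg7 FF (Olig1 Control) on the other, which takes 8 of the 12 MouseWG-6 v2.0 arrays of the study. The other 4 arrays held livers of Alb-Cre:Atg7 FF mice, in which the albumin promoter drives Cre in hepatocytes, and they serve here only where the Olig1-Cre livers were set directly against them. All 12 mice were 2 months old and all carried floxed Atg7, the controls included. Of the Olig1-Cre livers, livers 1, 3 and 4 were female and liver 2 was male. Of the controls, livers 2, 3 and 4 were female and liver 1 was male. Controls 2 and 4 came from the Olig1-Cre line and controls 1 and 3 from the Alb-Cre line, and both groups had 2 arrays on either chip. The methods describe the controls of the Alb-Cre mice as littermates. For the Olig1-Cre mice the origin of the allele, the liver cells in which it was active and the litters are given by no source used here. A p-value therefore reflects no more than how these 8 livers varied.

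Atg7 is the enzyme that activates the ubiquitin-like proteins of autophagy, the pathway that encloses proteins and organelles in membranes and delivers them to lysosomes. In hepatocytes without autophagy the cargo receptor p62, the product of Sqstm1, is known to accumulate, to bind Keap1 and to release the transcription factor Nrf2, which switches on genes of glutathione synthesis and detoxification. Olig1 is a transcription factor known for its role in the oligodendrocyte lineage of the brain, where it marks precursors and the cells that myelinate axons. It is not known as a hepatocyte gene.

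The tested signals are normalised log2 signals of 10711 genes, and a gene was called when limma gave it a p-value adjusted over all genes under 0.05. In the Olig1-Cre livers 2273 genes were called, which is 21.2% of those tested. Of these, 1366 genes were higher (12.8%) and 907 were lower (8.47%) than in the controls. The 4 values of one group lay wholly above or below the 4 of the other for 2563 genes (23.9%). The arrays also differed in the share of probes above background, which was 39.1% to 41.9% in Olig1-Cre livers and 34.2% to 37.8% in controls, and the part of this difference in the calls was not tested. The division into higher and lower calls rests on the quantile normalisation, which sets the median log2 fold change of all genes at -0.00018. With each array scaled instead to 1 median over all probes, that median was 0.40 and 1734 genes were higher and 38 lower. Scaled to 1 median over the probes detected on all arrays, it was -0.21, with 705 genes higher and 1156 lower. All changes below are relative to the normalised median.

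The size of the change differed between the 4 Olig1-Cre livers. Over the 1366 genes called higher, the median difference from the mean of the controls was 1.02, 0.51, 1.03 and 0.84 on the log2 scale in Olig1-Cre livers 1 to 4. Over the 907 genes called lower it was -0.81, -0.41, -0.84 and -0.69. Olig1-Cre liver 2, the male, stood closest to the controls in 1088 of the higher genes (79.6%) and in 661 of the lower genes (72.9%). Its value lay inside the range of the 4 controls for 161 of the higher genes (11.8%) and 173 of the lower genes (19.1%), against 5 to 29 and 4 to 28 genes in the 3 female livers. The correlation across genes of liver 2 with the 4 controls had a median of 0.964, and that of the female Olig1-Cre livers 0.922. As liver 2 was the only male with Cre under Olig1, its sex and its own state cannot be told apart. Without it 3144 genes were called (1801 higher, 1343 lower), and among females alone, 3 against 3, 3154 (29.4%).

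**Figure D1:**
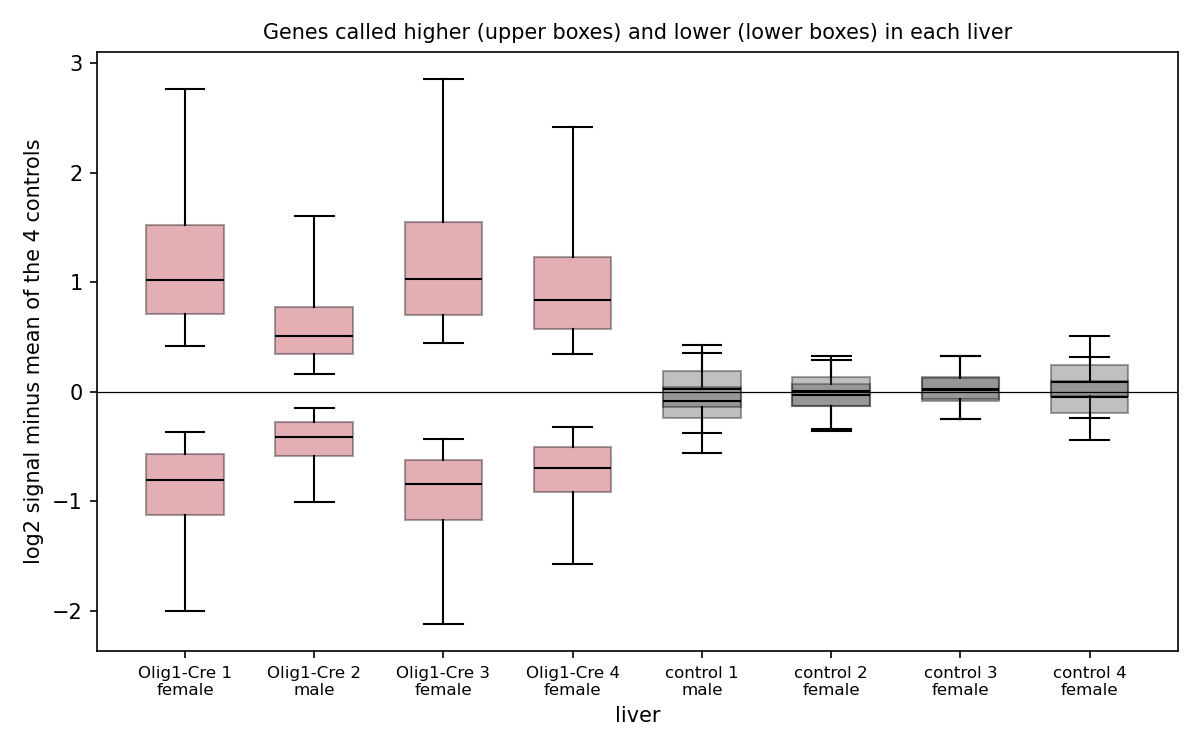
Difference of each liver from the mean of the 4 controls (log2 signal, vertical axis) over the 1366 genes called higher (upper boxes) and the 907 called lower (lower boxes). Boxes span the quartiles with the median as a line and whiskers reach percentiles 5 and 95, and the boxes of the male Olig1-Cre liver 2 sit nearest 0, with medians of 0.51 and -0.41.

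Neither the targeted gene nor the gene that drives Cre showed a difference beyond the spread between livers. The only Atg7 probe was detected on 0 Olig1-Cre arrays and 1 control array, so that it gave no check of genotype, and no source used here says whether it lies in the exon that Cre removes. Its log2 signal was 4.49, 4.29, 4.37 and 4.41 in the Olig1-Cre livers and 4.23, 5.70, 4.24 and 4.29 in controls 1 to 4 (exact permutation test over 70 relabellings, two-sided, p = 0.971). Olig1 itself was detected on all 12 arrays, at 6.73, 6.88, 6.37 and 6.09 in the Olig1-Cre livers and 7.39, 6.27, 5.86 and 6.71 in the controls (exact permutation p = 0.943, where the smallest p this design allows is 0.0286). The ranges of the groups overlapped for both genes.

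Of the oligodendrocyte lineage, the partner factor Olig2, the lineage regulator Sox10, the myelin gene Mog and the precursor gene Cspg4 were not detected on any of the 8 arrays. Of 7 lineage genes tested, 3 rose, 0 fell and 4 did not pass. Those that rose were Mbp, which encodes a myelin protein, at 5.95, 4.91, 5.49 and 5.32 in the Olig1-Cre livers against 4.32, 4.59, 4.48 and 4.86 in the controls (log2 fold change 0.86, SE 0.21, adjusted p = 0.0207), Mag, a myelin adhesion protein (log2 fold change 0.44), and Pdgfra, a growth factor receptor that stellate cells also carry (0.60). The groups did not overlap for Mbp or Mag, and the probes of both were detected on 4 Olig1-Cre arrays and 2 control arrays. With arrays scaled to 1 median over the probes detected on all arrays, 1 of the 3 was called. In the direct comparison with Alb-Cre livers none of the 3 was called (adjusted p = 0.339, 0.431 and 0.462).

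Genes of detoxification carried several of the largest changes. Of the targets of Nrf2, 24 of 44 tested genes were higher and 1 lower, with a median log2 fold change of 1.13, and without Olig1-Cre liver 2 the count was 32 higher and 2 lower. Cbr3, a carbonyl reductase, was at 11.81, 10.09, 12.02 and 11.29 in Olig1-Cre livers 1 to 4 and at 4.82, 4.91, 4.94 and 5.001 in controls 1 to 4. Its lowest Olig1-Cre liver, liver 2, thus stood far above the highest control (log2 fold change 6.38, SE 0.35, adjusted p = 7.53e-06). Gsta1, a glutathione transferase, was at 12.85, 11.70, 13.24 and 13.02 against 6.85, 6.13, 6.08 and 6.43 (log2 fold change 6.33, SE 0.32, adjusted p = 4.17e-06), and its 3 probes gave log2 fold changes from 4.59 to 7.36. Its relative Gsta2 was at 13.23, 11.96, 13.45 and 13.27 against 8.04, 7.82, 8.27 and 7.89 (log2 fold change 4.98, SE 0.29, adjusted p = 1.12e-05). Sequences of the probes were not examined, so the signals of these close relatives may not be separate.

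Gpx2, a glutathione peroxidase best known from gut epithelium, was not detected on any control array and was at 11.22, 8.07, 11.20 and 9.75 in the Olig1-Cre livers, with liver 2 the lowest. Its level was at least 39-fold higher (measured log2 fold change 5.76, adjusted p = 0.000373). Such bounds set the mean of the Olig1-Cre livers against the lowest signal among detected probes of each control array, or the gene's own signal where that was higher. Srxn1, which repairs oxidised peroxiredoxins, was at 10.97, 9.63, 11.49 and 10.96 against 6.72, 6.87, 6.76 and 6.39 (log2 fold change 4.07, SE 0.33, adjusted p = 0.000121). Nqo1, a quinone reductase, was at 7.41, 6.32, 7.69 and 7.18 against 5.09, 5.33, 5.31 and 5.42 (log2 fold change 1.86, SE 0.25, adjusted p = 0.00174), and Abcc4, an exporter of conjugates and bile acids across the basal membrane of hepatocytes, at 10.12, 9.08, 10.67 and 10.18 against 5.57, 6.01, 6.10 and 6.36 (log2 fold change 4.002, SE 0.30, adjusted p = 7.93e-05). In all 3 genes liver 2 was the lowest of the Olig1-Cre livers and was still above every control. The 1 target that fell was Me1, malic enzyme, which also serves fatty acid synthesis (log2 fold change -1.04, SE 0.18, adjusted p = 0.00488).

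Among the 22 risen Nrf2 targets for which RefSeq gives a promoter here (GRCm38.p6, 250 bases before to 50 after the first listed start), 3 hold the core of the antioxidant response element, TGACNNNGC, on either strand. That share, 13.6%, was close to the 12.5% of all 27025 promoters of this length, and the element occurs in 5 of the 18 tested targets with a promoter that did not rise (27.8%). The promoters of Srxn1 and Abcc4 belong to genes with large changes and are shown, with the element in capitals, to place it beside the values above.
Srxn1 (chr2:152105274-152105573, plus strand): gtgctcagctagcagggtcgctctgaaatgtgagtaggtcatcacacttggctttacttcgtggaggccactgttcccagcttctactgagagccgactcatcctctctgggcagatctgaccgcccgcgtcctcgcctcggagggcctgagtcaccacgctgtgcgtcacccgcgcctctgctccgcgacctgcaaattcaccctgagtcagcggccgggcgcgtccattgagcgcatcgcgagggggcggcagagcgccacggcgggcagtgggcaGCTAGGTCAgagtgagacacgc
Abcc4 (chr14:118706170-118706469, minus strand): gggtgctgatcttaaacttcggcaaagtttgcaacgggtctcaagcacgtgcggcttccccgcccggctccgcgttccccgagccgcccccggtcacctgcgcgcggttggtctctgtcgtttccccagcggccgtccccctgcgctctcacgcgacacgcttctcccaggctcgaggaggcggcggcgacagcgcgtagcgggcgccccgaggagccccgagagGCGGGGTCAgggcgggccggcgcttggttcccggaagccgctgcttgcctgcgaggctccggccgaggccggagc
Counted from the start, the element lies at -25 to -17 in Abcc4 and at 28 to 36 in Srxn1, in both on the strand opposite to the gene. Gclm, a subunit of the enzyme that starts glutathione synthesis, holds the third match and rose by less (log2 fold change 0.50, SE 0.14, adjusted p = 0.0306).

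Of 30 tested genes of the core autophagy machinery, 1 rose and 4 fell (16.7% called, beside 21.2% of all genes), with a median log2 fold change of -0.17 (0.35 with arrays scaled to 1 median over all probes). The one that rose was Atg16l2, a paralogue of the Atg16 scaffold (1.32, adjusted p = 0.0285), where control 1 lay within the Olig1-Cre range. Atg3, which passes LC3 on to lipid, fell (log2 fold change -0.71, SE 0.18, adjusted p = 0.0242), as did Atg9a (-0.59), a membrane protein of forming autophagosomes. Of 10 cargo receptors tested, Sqstm1 and Fundc1 rose (20%) and none fell. Sqstm1, which encodes p62, was at 11.98, 11.22, 12.17 and 11.71 against 10.77, 10.45, 10.40 and 10.37 (log2 fold change 1.27, SE 0.20, adjusted p = 0.00314), so that every Olig1-Cre liver exceeded every control. Among 30 lysosomal genes, 7 rose and 1 fell, led by Cd63, a membrane protein of late endosomes (1.95). In the proteasome list only Psmd8 (0.68) and Psmb5 (0.62) of 27 tested genes were called, both higher.

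The gene with the largest change was Spink1, a secreted trypsin inhibitor of the pancreas, which was not detected on any control array. It reached 12.44, 10.26, 12.52 and 12.03 in the Olig1-Cre livers against measured signals of 4.50, 4.42, 4.60 and 4.54 in the controls, at least 131-fold higher (log2 fold change 7.30, SE 0.42, adjusted p = 1.07e-05). It belongs to a list of 14 tested genes of fetal and tumour-bearing liver, of which 9 rose, 0 fell and 5 did not pass (median 2.002). Ly6d, a surface protein anchored by lipid, was at 11.12, 8.78, 10.85 and 10.002 against 4.57, 4.31, 4.52 and 4.94 (log2 fold change 5.60, SE 0.43, adjusted p = 8.21e-05). Tff3, a trefoil factor secreted by mucous epithelia, was at 10.56, 9.99, 10.58 and 8.95 against 6.07, 4.196, 4.35 and 4.202 (log2 fold change 5.32, SE 0.47, adjusted p = 0.000182), with control 1, the male, the only control above background. Slpi, a secreted protease inhibitor, was at 11.41, 8.87, 12.03 and 11.14 against 5.81, 7.05, 7.65 and 6.94 (adjusted p = 0.00299), and Lcn2, which binds bacterial iron carriers, rose as well (3.59). Gpc3 (2.21) and Golm1 (1.79), surface and Golgi proteins used as tumour markers in human liver, were also higher. Among 4 tested genes of the exocrine pancreas, 0 were called higher and 1 lower, or 1 and 0 with arrays scaled to 1 median over all probes.

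Tekt5 and Gipc2 went from background to clear signals. Tekt5, which encodes a filament protein known from sperm tails, was at 9.85, 7.38, 10.08 and 9.17 in the Olig1-Cre livers and not detected in any control, at least 20.3-fold higher (adjusted p = 0.000327). Gipc2, a PDZ-domain scaffold protein, was at 9.18, 7.15, 9.36 and 8.57 and again not detected in any control, at least 13.8-fold higher (adjusted p = 0.000217). In both genes liver 2 was the lowest of the Olig1-Cre livers, by more than 1 log2 unit, and still far above the controls.

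**Figure D2:**
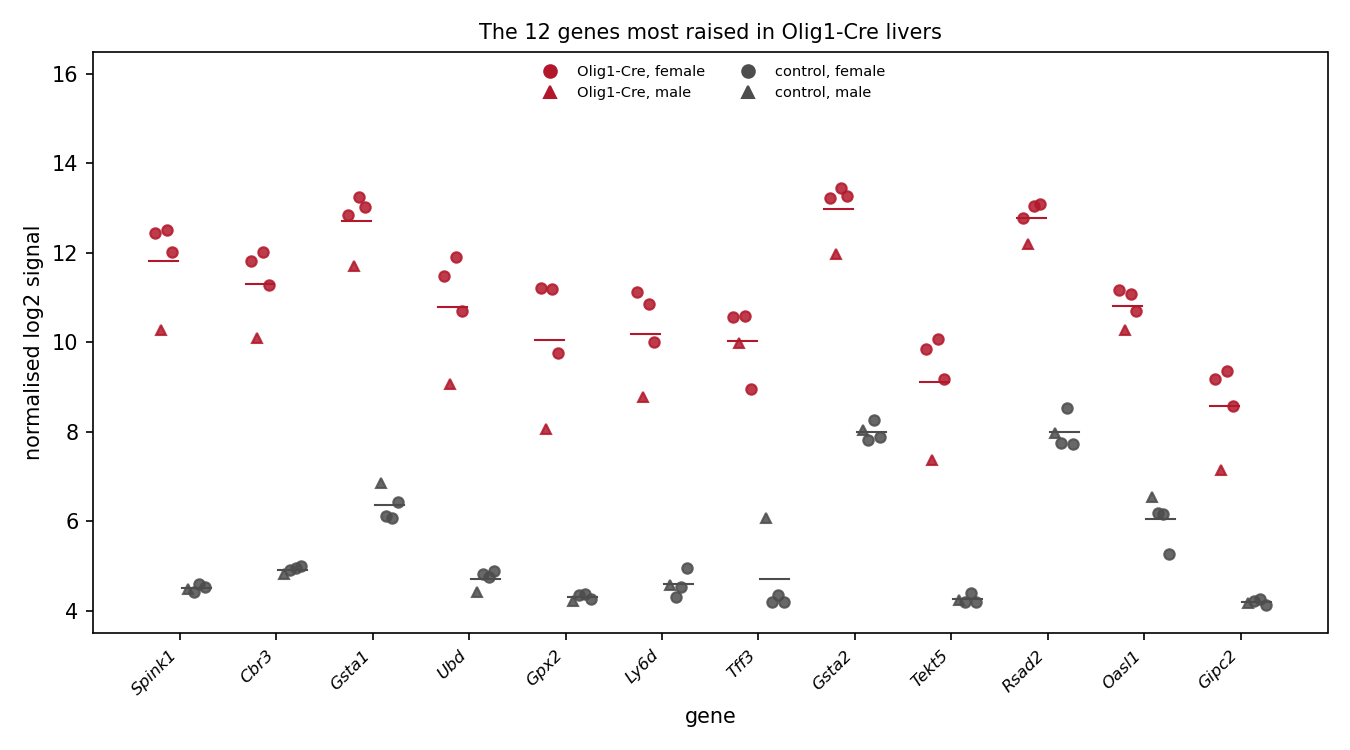
Normalised log2 signal (vertical axis) of the 12 genes with the largest rise among called genes with non-overlapping groups (horizontal axis), 1 point per liver with triangles for males and lines for the means of 4 livers. All Olig1-Cre points lie above all control points, and the male Olig1-Cre liver is the lowest of its group in every gene except Tff3.

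Interferons act through STAT and IRF factors on genes that block viruses and aid antigen presentation. Of 30 tested genes of the interferon response, 18 rose, 0 fell and 12 did not pass (median 0.98). Rsad2, which makes an antiviral nucleotide, was at 12.78, 12.21, 13.04 and 13.08 in the Olig1-Cre livers and at 7.98, 7.76, 8.53 and 7.73 in the controls (log2 fold change 4.78, SE 0.23, adjusted p = 4.17e-06). Oasl1, a relative of the RNA-sensing oligoadenylate synthetases, was at 11.17, 10.28, 11.08 and 10.70 against 6.55, 6.19, 6.17 and 5.26 (log2 fold change 4.77, SE 0.28, adjusted p = 1.12e-05). For both genes the least raised Olig1-Cre liver, liver 2, was well above the highest control. Cxcl10, a chemokine that draws activated T cells, was at 8.96, 7.34, 8.81 and 9.36 against 4.91, 5.04, 5.31 and 5.49 (log2 fold change 3.43, SE 0.37, adjusted p = 0.000495). Isg15, a ubiquitin-like modifier, was at 10.77, 9.24, 10.09 and 10.25 against 7.52, 7.23, 7.60 and 7.13 (log2 fold change 2.72, SE 0.28, adjusted p = 0.000373). Ifit2 (3.33) and Ifit3 (1.48), which bind viral RNA, rose less evenly, with Ifit2 at 9.74, 7.37, 9.60 and 9.88 in the 4 livers. Ubd, a ubiquitin-like protein induced by inflammatory cytokines, was at 11.48, 9.07, 11.91 and 10.71 against 4.41, 4.81, 4.76 and 4.88 (log2 fold change 6.07, SE 0.50, adjusted p = 0.000124), and only Spink1, Cbr3 and Gsta1 rose more.

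The interferon-stimulated response element, searched on both strands as a pair of GAAA half-sites 2 bases apart, occurs in 6 of the 13 risen interferon genes with a RefSeq promoter here (46.2%) and in 3.49% of all 27025 promoters. It also occurs in 8 of the 12 genes of the list with a promoter that did not rise. The promoters of Rsad2, Cxcl10 and Isg15 are printed because these genes are described above, with the matches in capitals.
Rsad2 (chr12:26456403-26456702, minus strand): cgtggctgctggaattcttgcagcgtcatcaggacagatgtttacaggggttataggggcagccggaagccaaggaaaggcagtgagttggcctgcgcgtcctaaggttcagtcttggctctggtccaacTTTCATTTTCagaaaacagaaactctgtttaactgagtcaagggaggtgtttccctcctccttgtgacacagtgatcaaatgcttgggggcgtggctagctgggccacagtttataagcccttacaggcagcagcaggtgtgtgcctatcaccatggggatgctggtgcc
Cxcl10 (chr5:92348840-92349139, minus strand): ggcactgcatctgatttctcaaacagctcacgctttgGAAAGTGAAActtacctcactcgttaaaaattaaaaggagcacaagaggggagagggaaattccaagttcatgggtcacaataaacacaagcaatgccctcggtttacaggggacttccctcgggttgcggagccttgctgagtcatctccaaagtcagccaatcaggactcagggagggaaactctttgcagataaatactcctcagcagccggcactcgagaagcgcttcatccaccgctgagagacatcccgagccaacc
Isg15 (chr4:156200769-156201068, minus strand): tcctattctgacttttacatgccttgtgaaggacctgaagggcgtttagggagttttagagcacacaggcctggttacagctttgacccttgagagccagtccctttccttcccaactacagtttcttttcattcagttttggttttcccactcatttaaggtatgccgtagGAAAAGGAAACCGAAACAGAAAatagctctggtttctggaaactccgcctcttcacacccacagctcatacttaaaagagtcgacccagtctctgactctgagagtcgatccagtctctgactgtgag
Counted from the start, the match lies at -120 to -111 in Rsad2 and at -213 to -204 in Cxcl10. Isg15 holds 3 matches that overlap, the first of them at -78 to -69. No site in these windows was measured for binding of a factor.

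In a list of MHC class II genes, which present peptides to helper T cells, 8 of 8 tested members rose (median 1.61). H2-Ea, a class II gene outside the list, was not called and is described at the end. H2-Eb1 was at 10.32, 9.18, 10.23 and 10.28 against 7.45, 7.89, 7.98 and 8.58 (log2 fold change 2.03, SE 0.30, adjusted p = 0.00232) and H2-Aa at 9.84, 8.42, 10.08 and 10.09 against 7.27, 7.46, 8.17 and 8.35 (log2 fold change 1.80, SE 0.38, adjusted p = 0.0109). Here too liver 2 had the lowest values with Cre, and for H2-Aa it was barely above the highest control.

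Of 27 tested genes of macrophages and neutrophils, 19 rose, 1 fell and 7 did not pass (median 1.06). Mmp12, the elastase of macrophages, was at 8.26, 7.92, 8.31 and 8.51 in the Olig1-Cre livers, while it was not detected in any control, at least 11.1-fold higher (log2 fold change 3.86, SE 0.14, adjusted p = 8.32e-07). For Mmp12 the 4 Olig1-Cre livers were close together, the male included. Gpnmb, a glycoprotein of lipid-laden macrophages, was also undetected in the controls and at 7.80, 7.11, 8.07 and 7.37 in the Olig1-Cre livers (adjusted p = 1.25e-05), but its 2 probes disagreed in size, with log2 fold changes of 1.21 and 5.29. Lgals3, galectin-3, was at 11.29, 10.23, 10.91 and 10.84 against 7.59, 8.01, 8.06 and 8.65 (log2 fold change 2.74, SE 0.26, adjusted p = 0.000243). S100a8, a calcium-binding protein of neutrophils, was at 8.25, 7.21, 8.92 and 8.42 against 5.10, 7.26, 5.85 and 6.87 (log2 fold change 1.93, SE 0.48, adjusted p = 0.0208), where liver 2 fell within the control range. Cd163, a scavenger receptor of resident macrophages, was the 1 gene of the list that fell (-1.58).

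Among defining markers of resident macrophages, Adgre1, the F4/80 antigen, rose (0.88, adjusted p = 0.0231), whereas Clec4f (0.62, adjusted p = 0.0546) and Vsig4 (0.49, adjusted p = 0.142), genes of Kupffer cells, did not pass. Csf1r (0.64, adjusted p = 0.0533), Timd4 (0.05, adjusted p = 0.909) and Marco (-0.01, adjusted p = 0.976) did not pass either. Of 6 tested markers of this cell type Adgre1 alone was called, and their summed linear signal was 1901 to 3275 in the Olig1-Cre livers and 1162 to 1948 in the controls, and for the 3 neutrophil markers 186 to 656 and 38.3 to 199. In whole liver, more cells of a type and more RNA per cell cannot be told apart. Chemokines followed the same direction, with 12 of 22 tested genes higher and 2 lower. Ccl2, which recruits monocytes, was undetected in controls and at 7.77, 5.73, 7.28 and 6.95 in the Olig1-Cre livers, at least 4.47-fold higher (adjusted p = 0.00169). Ccl5, which recruits T cells, was at 9.85, 7.76, 9.82 and 9.07 against 5.18, 6.01, 6.36 and 6.86 (log2 fold change 3.03, SE 0.48, adjusted p = 0.00322). Of 9 lymphocyte genes tested, 5 rose and none fell, among them Cd3d (0.82) and Cd3e (0.52) of the T cell receptor complex, both at low signals, while the T cell gene Cd8a and the B cell gene Ms4a1 were not detected on any of the 8 arrays. None of these 5 genes was called with arrays scaled to 1 median over probes detected on all arrays.

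Genes of stellate cells and matrix were higher in 17 of 33 tested cases and lower in none (median 0.57, or 0.28 with quantile normalisation without background correction and 0.9998 with arrays scaled to 1 median over all probes). Apart from Mmp12, which the macrophage list shares, the largest were Mmp13, a collagenase, at 6.95, 6.94, 7.09 and 6.81 against 4.22, 4.37, 4.53 and 4.55 (adjusted p = 4.17e-06, with probe log2 fold changes of 0.65 and 4.40), and Spon2, a secreted matrix protein (log2 fold change 2.06, SE 0.38, adjusted p = 0.00619). Timp1, an inhibitor of matrix proteases, was undetected in controls and at least 2.28-fold higher (adjusted p = 0.000114). Col1a1, fibrillar collagen, was at 6.49, 5.58, 6.15 and 6.32 in the Olig1-Cre livers and 5.18, 4.34, 5.01 and 4.73 in the controls (log2 fold change 1.32, SE 0.23, adjusted p = 0.00484). Of 6 defining stellate markers tested, Col1a1 was called, and the others, among them Acta2 (0.28, adjusted p = 0.257), Pdgfrb (0.37, adjusted p = 0.173) and Des (-0.11, adjusted p = 0.62), did not pass. Their summed linear signal was 230 to 423 against 173 to 267.

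Bile duct and progenitor genes rose in 4 of 14 tested cases. The share called was 28.6% here and 26.3% in the endothelial list below, beside 21.2% of all genes. Sox9, a transcription factor of duct and progenitor cells, was at 7.32, 6.62, 6.84 and 6.77 against 5.76, 5.36, 6.35 and 5.65 (log2 fold change 1.11, SE 0.22, adjusted p = 0.00853). Krt8 (1.40) and Krt18 (1.19), the keratins of hepatocytes, and Tspan8, an epithelial tetraspanin (2.17), were the others. The defining duct markers Krt7 and Krt19 stayed near background, each detected on 1 of 4 Olig1-Cre arrays, and Epcam was not detected on any array. Endothelial genes showed 1 rise, Lyve1 (0.83), and 4 falls among 19, including Wnt2 (-0.80) and Stab2 (-0.59) of liver sinusoids, whereas Pecam1 did not pass (-0.22, and 0.38 with arrays scaled to 1 median over all probes). Under the same scaling the median of the endothelial list turned from -0.22 to 0.32 and no member was called lower. Hba-a1, alpha globin of red cells, was lower in Olig1-Cre livers, at 10.79, 9.43, 10.95 and 10.80 against 12.09, 11.89, 11.36 and 11.94 (log2 fold change -1.33, SE 0.32, adjusted p = 0.0173), and here liver 2 was the lowest.

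Of 32 tested genes of cell division, 21 rose, 1 fell and 10 did not pass (median 0.93, or 0.38 with quantile normalisation without background correction), while with arrays scaled to 1 median over probes detected on all arrays 10 rose. Mcm6, a subunit of the replication helicase, was at 7.61, 7.02, 8.11 and 7.23 against 4.33, 5.20, 4.38 and 5.61 (log2 fold change 2.61, SE 0.32, adjusted p = 0.00103). Cdk1, the kinase that drives entry into mitosis, was at 6.82, 5.72, 7.39 and 6.70 against 4.24, 4.39, 4.65 and 5.17 (log2 fold change 2.05, SE 0.33, adjusted p = 0.00331). Birc5, survivin, was at 6.17, 5.07, 6.19 and 6.11 against 4.36, 4.39, 4.40 and 4.82, so that liver 2 stood close to control 4 (adjusted p = 0.00543). Of 15 targets of p53 tested, 8 rose and none fell, among them Cdkn1a, the cell cycle inhibitor p21, at 6.73, 5.62, 6.81 and 6.04 against 5.76, 4.53, 5.43 and 4.63 (log2 fold change 1.21, SE 0.33, adjusted p = 0.0307), with liver 2 below control 1.

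The Hippo pathway limits organ size by keeping the coactivators Yap and Taz out of the nucleus. Of 28 tested Yap and Taz targets, 10 rose, 2 fell and 16 did not pass (median 0.41, but 0.86 where a probe had to be detected on all arrays of a group and 0.89 with arrays scaled over all probes). Of those that rose, Cdc20 and Birc5 are also on the cell cycle list. Axl, a receptor kinase, was at 10.44, 9.74, 10.46 and 10.35 against 8.79, 8.96, 9.23 and 9.22 (log2 fold change 1.20, SE 0.18, adjusted p = 0.00294). Fgf1, which encodes a growth factor, was lower (log2 fold change -1.30, SE 0.14, adjusted p = 0.000474). Among the pathway's own components, Yap1 was at a log2 fold change of -0.32 (adjusted p = 0.141, and 0.31 with arrays scaled over all probes) and the kinase gene Stk4 at 0.30 (adjusted p = 0.117). Of 15 components tested, 1 rose and 2 fell, a called share of 20% beside 21.2% of all genes. One that fell was Vgll4, a rival of Yap for binding to TEAD factors (-0.67). Annexins and S100 proteins, which bind calcium and membranes, rose in 8 of 19 tested cases, with S100a11 at 11.75, 9.80, 11.77 and 10.71 against 7.70, 7.91, 8.05 and 8.44 (log2 fold change 2.98, SE 0.40, adjusted p = 0.00152).

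**Figure D3:**
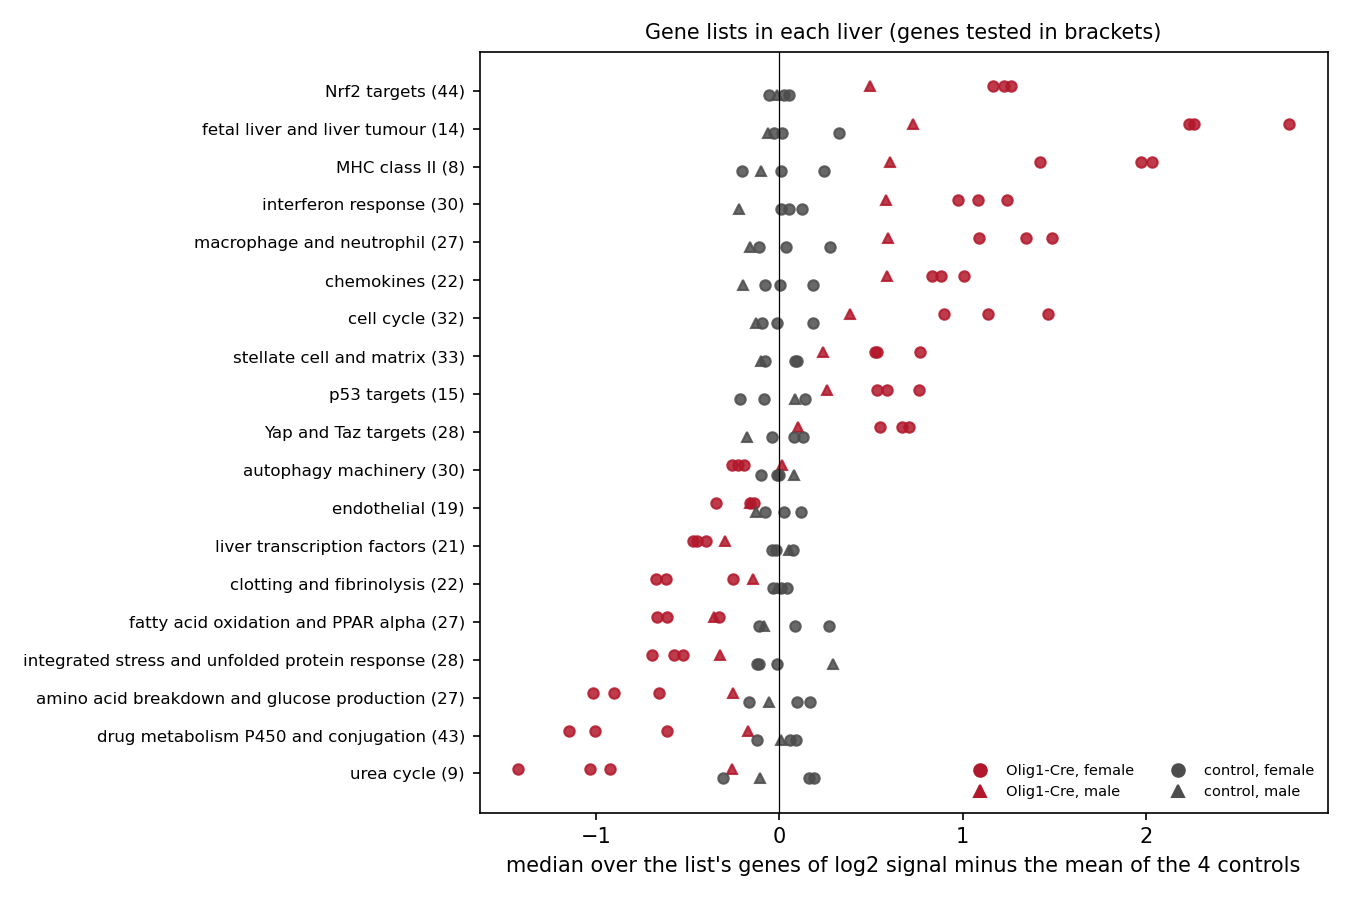
Median over each list's tested genes of the log2 signal minus the mean of the 4 controls (horizontal axis), 1 point per liver, for 19 lists (vertical axis, with the number of genes in brackets). In the Nrf2, MHC class II, interferon and macrophage lists all 4 Olig1-Cre livers lie above all controls, with the male liver at 0.49, 0.60, 0.58 and 0.59.

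Of 24 tested genes of a general list of hepatocyte markers, 4 fell, 2 rose and 18 did not pass (25% called, median -0.23). Of 8 defining hepatocyte markers tested, only Cps1, the first enzyme of the urea cycle, was called (log2 fold change -0.95, SE 0.29, adjusted p = 0.0445). All 8 had negative log2 fold changes, from -0.95 to -0.06, with Alb among them at dim signals from its single probe. With arrays scaled to 1 median over all probes the sign was not uniform, as Hnf4a was at 0.17. The summed linear signal of the 8 markers was 48063 to 62409 in the Olig1-Cre livers and 60872 to 69323 in the controls. Of 23 tested acute phase genes, 5 rose and 3 fell. Among 43 genes of drug metabolism, 15 fell, 1 rose and 27 did not pass (median -0.75). With arrays scaled to 1 median over all probes, 7 of these genes fell, and so did 1 of the fatty acid oxidation and 0 of the lipid synthesis genes given below. Sult2a8, a bile acid sulfotransferase, was at 5.78, 11.18, 5.14 and 7.84 in Olig1-Cre livers 1 to 4 and at 11.50, 11.49, 11.34 and 11.21 in controls 1 to 4. Liver 2 was thus just under the lowest control, whereas the 3 females were far lower (log2 fold change -3.90, SE 1.06, adjusted p = 0.0285). Cyp2c54, a cytochrome P450, was at 5.56, 7.94, 5.15 and 6.59 against 9.36, 10.11, 10.02 and 9.90 (log2 fold change -3.54, SE 0.51, adjusted p = 0.00227). Cyp2c29 was at 5.56, 6.81, 5.59 and 7.98 against 10.13, 9.39, 10.32 and 10.12 (log2 fold change -3.51, SE 0.48, adjusted p = 0.00184), and its lowest livers were 1 and 3. Cyp2c23 (-3.16) and Cyp2c50 (-2.27) fell with them, and as P450 genes of one cluster are close in sequence their probes may not be wholly separate. Cyp1a2, which metabolises caffeine, was the 1 gene of the list that rose (log2 fold change 0.60, SE 0.14, adjusted p = 0.016). Nr1i3, the receptor CAR that induces Cyp2b and Cyp2c genes, was at 8.50, 8.94, 8.08 and 8.79 against 9.11, 9.87, 9.62 and 9.95 (log2 fold change -1.06, SE 0.23, adjusted p = 0.0116).

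The urea cycle turns ammonia from amino acids into urea. Of 9 of its genes tested, 7 fell, none rose and 2 did not pass (median -0.84). Asl, argininosuccinate lyase, was at 8.30, 9.22, 8.21 and 8.34 against 9.88, 10.26, 9.94 and 9.36 (log2 fold change -1.34, SE 0.25, adjusted p = 0.00675) and Otc, which makes citrulline, at 7.02, 7.86, 6.93 and 7.57 against 8.38, 8.68, 8.72 and 8.18 (log2 fold change -1.14, SE 0.22, adjusted p = 0.00753). Of 27 genes of amino acid breakdown and glucose production, 14 fell, none rose and 13 did not pass (median -0.65). G6pc, which releases glucose from the liver, was at 9.22, 10.68, 10.14 and 10.08 against 12.71, 10.67, 12.32 and 11.67 (log2 fold change -1.81, SE 0.43, adjusted p = 0.0167), where liver 2 reached the level of control 2. Pck1, the first enzyme of gluconeogenesis (log2 fold change -1.67, SE 0.35, adjusted p = 0.0103), and Hal, which starts histidine breakdown (log2 fold change -1.49, SE 0.24, adjusted p = 0.00331), were also lower. With arrays scaled to 1 median over all probes, 0 of the urea cycle genes and 1 of the amino acid and glucose genes were called lower, at medians of -0.45 and -0.24.

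Clotting and fibrinolysis genes fell in 10 of 22 tested cases and rose in 1 (0 fell with arrays scaled over all probes). F7, coagulation factor VII, was at 8.19, 8.92, 7.71 and 8.20 against 9.30, 9.44, 9.46 and 9.43 (log2 fold change -1.15, SE 0.22, adjusted p = 0.00691). Serpinc1, antithrombin, fell too (log2 fold change -0.86, SE 0.14, adjusted p = 0.00331). Igfals, which stabilises circulating IGF, was at 9.22, 10.95, 8.58 and 9.85 against 11.15, 12.14, 11.71 and 11.56 (log2 fold change -1.99, SE 0.43, adjusted p = 0.0118), Igf1 at 9.99, 11.04, 9.54 and 10.31 against 11.46, 11.83, 11.69 and 11.60 (log2 fold change -1.43, SE 0.27, adjusted p = 0.00688) and Ghr, the growth hormone receptor, at 8.32, 9.38, 8.38 and 8.77 against 9.91, 10.14, 10.21 and 9.80 (log2 fold change -1.30, SE 0.23, adjusted p = 0.00484). Of 30 plasma carriers and apolipoproteins tested, 8 fell, 1 rose and 21 did not pass. Alb gave dim signals of 4.59 to 5.45 in Olig1-Cre livers and 5.26 to 5.78 in controls from its single probe (adjusted p = 0.0691). Of 21 tested iron and metallothionein genes, 2 fell and 1 rose (14.3% called, beside 21.2% of all genes). Hamp2, a hepcidin relative and one of the 2, was at 11.45, 11.99, 11.62 and 12.17 against 13.11, 13.72, 13.59 and 13.83 (log2 fold change -1.76, SE 0.20, adjusted p = 0.000736), with all 4 Olig1-Cre livers close together. Among 21 liver transcription factors 9 fell and none rose, with a median of -0.40 that turned to 0.05 with arrays scaled over all probes. Hnf4a, the master regulator of hepatocytes, did not pass (-0.25, adjusted p = 0.277, and 0.17 under that scaling), whereas Onecut2 (log2 fold change -0.91, SE 0.11, adjusted p = 0.00121) and Klf15 (log2 fold change -0.98, SE 0.19, adjusted p = 0.00835) were lower.

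Genes of lipid metabolism fell more often than they rose. In fatty acid oxidation 9 of 27 tested genes fell and Fgf21, a fasting hormone of the liver, rose (log2 fold change 1.46, SE 0.39, adjusted p = 0.0263). Ppara, the receptor that governs these genes, was at 5.62, 6.29, 5.64 and 6.37 against 6.82, 6.81, 6.71 and 7.31 (log2 fold change -0.93, SE 0.21, adjusted p = 0.0148). Of 30 genes of lipid and sterol synthesis, 9 fell and none rose, among them Thrsp, which responds to carbohydrate (log2 fold change -1.39, SE 0.39, adjusted p = 0.0317). Of 19 tested genes of a peroxisome list, 4 fell and none rose (21.1% called, beside 21.2% of all genes). One that fell was Hacl1, a peroxisomal lyase of fatty acid alpha-oxidation, at 6.58, 8.36, 7.38 and 8.04 against 9.58, 9.76, 9.74 and 8.96 (log2 fold change -1.92, SE 0.35, adjusted p = 0.00606). Of 21 tested bile acid genes, 3 fell, 2 rose and 16 did not pass (23.8% called, beside 21.2% of all genes). Their median was -0.18, or 0.14 with arrays scaled to 1 median over all probes. Among those called, Slc10a1, which takes up bile acids, fell (log2 fold change -1.25, SE 0.22, adjusted p = 0.00534). Abcb11, which secretes them into bile, fell too (log2 fold change -1.16, SE 0.30, adjusted p = 0.0235), whereas Abcc4 rose.

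**Figure D4:**
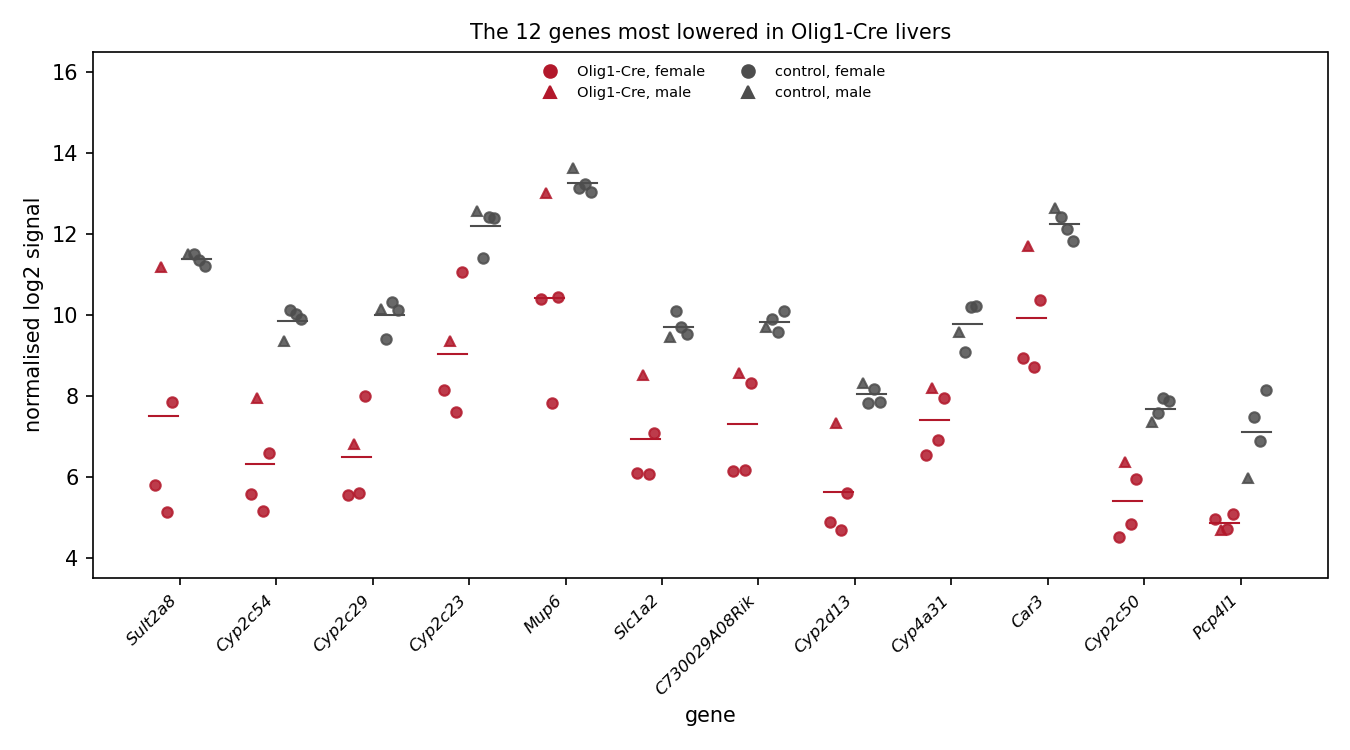
Normalised log2 signal (vertical axis) of the 12 genes with the largest fall among called genes with non-overlapping groups (horizontal axis), 1 point per liver with triangles for males and lines for the means of 4 livers. All Olig1-Cre points lie below all control points, and the male Olig1-Cre liver lies just under the controls in Sult2a8 and Mup6.

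The unfolded protein and integrated stress responses adjust protein folding and synthesis when cells are stressed. Of 28 tested genes of a list that mixes both responses, 11 fell, 3 rose and 14 did not pass (median -0.51, or -0.10 with 2 lower and 4 higher when scaled over all probes). Calr, a folding chaperone of the reticulum, was at 7.48, 8.61, 7.82 and 7.92 against 9.94, 9.44, 9.39 and 8.56 (log2 fold change -1.38, SE 0.30, adjusted p = 0.0126) and Sdf2l1, which aids chaperones, at 5.45, 6.55, 5.59 and 5.24 against 8.11, 6.95, 6.91 and 6.79 (log2 fold change -1.48, SE 0.34, adjusted p = 0.0153). In both, the male liver and the male control were the highest of their groups, and for Calr the groups overlapped. Atf3, a stress-induced transcription factor, rose from near background, 6.25, 5.47, 6.14 and 5.96 against 4.19, 4.33, 4.22 and 4.89 (log2 fold change 1.55, SE 0.21, adjusted p = 0.00161).

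Position within the liver lobule and sex shape the expression of many hepatocyte genes. Of 16 periportal genes 9 fell and 2 rose, and of 17 pericentral genes 5 fell and 3 rose, so calls were found among genes of both zones. Slc1a2, a glutamate transporter of pericentral hepatocytes, was at 6.08, 8.50, 6.07 and 7.07 against 9.46, 10.09, 9.70 and 9.52 (log2 fold change -2.76, SE 0.47, adjusted p = 0.00426) and Glul, glutamine synthetase of the same cells, at 5.52, 6.36, 5.66 and 6.14 against 6.63, 6.86, 6.71 and 7.57 (log2 fold change -1.02, SE 0.25, adjusted p = 0.0182). Slc1a4, a transporter of neutral amino acids, went the other way, 9.03, 7.83, 9.58 and 8.77 against 5.16, 5.19, 5.78 and 5.23 (log2 fold change 3.46, SE 0.32, adjusted p = 0.000229). Mup6, one of the major urinary proteins and close in sequence to its relatives, was at 10.38, 13.003, 7.82 and 10.44 against 13.63, 13.14, 13.23 and 13.02 (log2 fold change -2.85, SE 0.83, adjusted p = 0.037). Hsd3b5, a steroid dehydrogenase known from male mouse liver, was at 4.29, 11.09, 4.25 and 4.30 in the Olig1-Cre livers and 11.84, 8.62, 6.84 and 6.89 in the controls, a difference that was not called over both sexes (adjusted p = 0.275) but was among females (log2 fold change -3.17, adjusted p = 0.000824). It was at 4.31 to 4.51 in the 4 Alb-Cre livers, which were all male, so the male Olig1-Cre liver alone among these 5 males with Cre had a clear signal. As a check of labelled sex, the X-linked marker and the combined signal of 3 Y-linked genes matched it on 12 of 12 arrays. Of these 3 genes, Eif2s3y and Kdm5d each had a kept probe detected in males only. The kept probe of Uty did not separate the sexes, at 5.46 in the male Olig1-Cre liver 2 and 5.32 in the female Olig1-Cre liver 1.

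The Olig1-Cre livers were also set directly against the livers in which the albumin promoter drove Cre. A limma test of 4 against 4 called 17 of 10711 genes (0.159%), 9 higher and 8 lower in Olig1-Cre livers, with 1538 genes at an unadjusted p under 0.05. Leaving out single livers gave 3 to 29 calls, with 29 when Olig1-Cre liver 2 was left out, 3 without Olig1-Cre liver 4 or Alb-Cre liver 3, 4 and 6 without Alb-Cre livers 2 and 1 and 8 without Olig1-Cre liver 1. Of the 17 genes, 3 were also called against the controls, namely Cachd1, Igsf1 and H2ac18. None of the 12 genes with the largest rise among called genes with non-overlapping groups was among the 17. Neither was any of the 12 with the largest fall. The difference of Olig1-Cre minus Alb-Cre was -0.32 for Spink1 (SE 0.44) and -0.24 for Gsta1 (SE 0.31). It was 0.36 for Rsad2 (SE 0.19) and -0.01 for Mmp12 (SE 0.16). As all Alb-Cre livers were male, a fit with sex as a covariate rests on the 1 male Olig1-Cre liver. It called 201 genes (1.88%), 87 higher and 114 lower, and in 173 of them that liver was the Olig1-Cre liver closest to the controls. Among the lower calls of that fit were 7 Nrf2 targets, 8 cell cycle genes and 4 genes of the fetal and tumour list. A list can lie apart without a call, and the median of Olig1-Cre minus Alb-Cre without the covariate was -0.55 over the stellate and matrix list and -0.66 over the bile duct and progenitor list, in which no gene was called.

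In 12 of the 17 called genes the controls of the Olig1-Cre line and those of the Alb-Cre line did not overlap, with the same direction as the Cre livers of their own line. Over all 10711 genes this held for 2539 (23.7%), and the 2 pairs of controls did not overlap in either direction for 4063 (37.9%). Dennd2a, Gstk1, Ccdc126 and Tcaf1, which all split by line, lie on chromosome 6, which holds 545 of the genes tested. The other called genes lie elsewhere, and the cause was not tested. Dennd2a, a regulator of Rab proteins, was at 5.90, 5.94, 5.98 and 6.24 in the Olig1-Cre livers, 5.84 and 5.88 in the controls of that line, 4.68 and 4.26 in the controls of the Alb-Cre line and 4.42, 4.39, 4.35 and 4.28 in the Alb-Cre livers (Olig1-Cre minus Alb-Cre 1.66, adjusted p = 0.000624). Gstk1, a mitochondrial glutathione transferase, followed the same order (1.96, adjusted p = 0.00187), as did Psmc3ip, a factor of meiotic recombination, in the opposite direction (-1.80, adjusted p = 0.0359). Ddit4 (-1.51), Hspa1a (-1.47) and Atp1b1 (-1.39) also split by line. Cyp2c39, a P450, had the largest difference (3.43, adjusted p = 0.0164), but its controls spread from 5.46 to 10.41. Cachd1 was an exception, at 5.46, 5.09, 5.39 and 4.75 in Olig1-Cre livers, 4.36, 4.77, 4.52 and 4.46 in controls and 6.49, 6.74, 6.74 and 7.02 in Alb-Cre livers (-1.58, SE 0.18, adjusted p = 0.0153). Between the Cre groups, line and driver cannot be told apart. Sex differed too, as all Alb-Cre livers but only 1 Olig1-Cre liver were male. Both controls of the Olig1-Cre line were female, and of those of the Alb-Cre line 1 was male. The part of sex in the split by line was not tested.

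**Figure D5:**
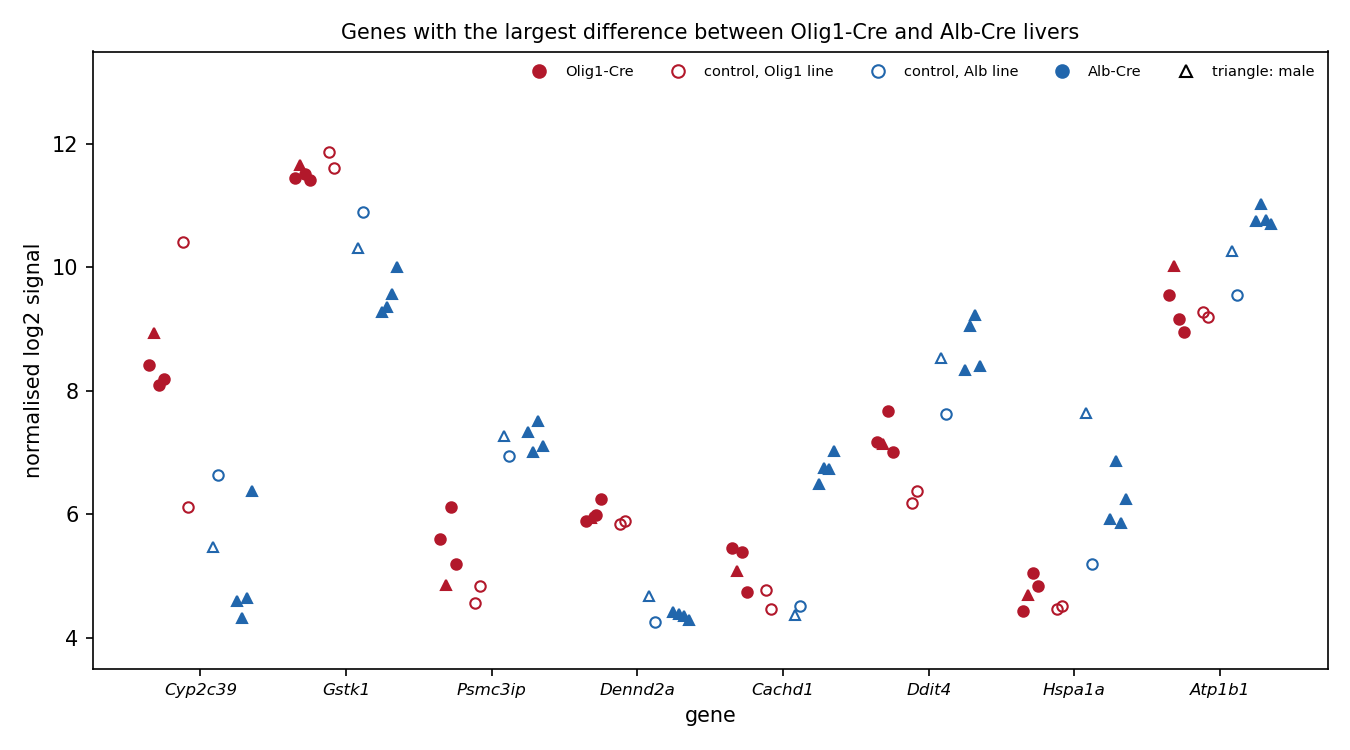
Normalised log2 signal (vertical axis) of the 8 genes with the largest difference among those called between Olig1-Cre and Alb-Cre livers (horizontal axis), 1 point per liver, controls drawn as open symbols in the colour of their line and males as triangles. In Dennd2a the controls of the Olig1-Cre line (5.84 and 5.88) sit with the Olig1-Cre livers and those of the Alb-Cre line (4.68 and 4.26) with the Alb-Cre livers, while in Cachd1 all controls lie below the Alb-Cre livers.

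Line also enters the comparison with controls, since all Olig1-Cre livers are of one line and the controls of both. Against the 2 controls of their own line alone, 732 genes were called (493 higher, 239 lower), and against the 2 of the Alb-Cre line 1200 (772 higher, 428 lower). Each of these fits had 2 controls, and leaving out a single liver took the count as low as 1088. Both controls of the Olig1-Cre line were female, and of those of the Alb-Cre line 1 was male. The part of line in these counts was not tested. With the controls of the Olig1-Cre line alone, 18 Nrf2 targets, 11 interferon genes and 11 macrophage and neutrophil genes were higher, and 1 urea cycle gene was lower.

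Genes within 10 Mb of Olig1 on chromosome 16 were counted apart, as no source used here gives the site of the Cre allele. Of 62 tested genes there, 14 were called (22.6%), 11 higher and 3 lower, against 21.2% of all genes. The largest changes among them were Cbr3 (6.38) and its neighbour Cbr1, another carbonyl reductase and Nrf2 target, at 11.46, 10.57, 11.85 and 11.46 against 9.06, 9.14, 9.57 and 9.43 (log2 fold change 2.03, SE 0.25, adjusted p = 0.00103). Tmprss2, a membrane serine protease (log2 fold change 1.49, SE 0.30, adjusted p = 0.00874), and Mx2, an antiviral GTPase of the interferon list (log2 fold change 1.22, SE 0.25, adjusted p = 0.0103), followed. Olig1-Cre minus Alb-Cre differences of these 4 genes were not called without a covariate (adjusted p = 0.546, 0.621, 0.427 and 0.851). With sex as a covariate the fit rests on the male Olig1-Cre liver 2 alone. Its differences were -1.76 for Cbr3, -1.08 for Cbr1, -1.33 for Tmprss2 and 0.16 for Mx2. Cbr3 was at 10.09 in that liver and at 11.81, 12.02 and 11.29 in the female Olig1-Cre livers. In the Alb-Cre livers it was at 11.51 to 12.38.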

How the data were processed

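Whole-liver RNA was hybridised to 12 MouseWG-6 v2.0 arrays with 45281 probes, of which the 4 Olig1-Cre and 4 control arrays were compared and the 4 Alb-Cre arrays entered normalisation and 1 direct test. Groups, sex, line and chip come from the sample labels. Liver numbers follow sample order and pair nothing. For every probe the authors deposited an intensity without normalisation, its detection p-value, and a table of log2 values (medians of 4.386 to 4.389 per array). GenomeStudio and limma 3.22.1 appear in the submitters' processing notes and a cubic spline in the methods, without saying which step made the deposited log2 values.

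The intensities were corrected and normalised together with neqc of limma 3.58.1 in R 4.3.3 (offset of 16, quantile normalisation), which came within 0.027 of the deposited log2 values. A probe was kept (19528 in all) if 4 or more of the 12 arrays gave it a detection p-value under 0.05. The platform annotation gives 34885 probes 1 gene symbol, 18 several and leaves 10378 unnamed here. The 16727 kept probes with 1 symbol make 10711 genes, each the median of its probes. Groups were compared with lmFit and eBayes, two-sided, without covariates, with Benjamini-Hochberg adjustment over all genes. Single probes were compared by exact permutation. The 48 gene lists came from general knowledge, and members and lists were chosen with earlier results of these data known. Lists are described by counts and medians and were not tested.

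Genes named come from Atg7 and Olig1, the 12 highest and 12 lowest non-overlapping called genes, up to 4 called members of each list, the 4 largest near Olig1, the 8 largest called against Alb-Cre livers and cell type markers. Srxn1, Nqo1, Gclm, Me1, Isg15, Ifit3, Cd163, Gpc3, Golm1, Yap1 and Stk4 were chosen after their values were seen. Alternatives changed the normalisation, filter, probe rule, covariates, controls, test and livers included. The number of arrays limits precision. The fits were tested on simulated data.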

Additional observations from a re-analysis of the deposited data

Results flagged for a closer look

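Among 381 pairs of a named gene and a group of 4 livers, 32 held 1 liver whose gap to its nearest neighbour, divided by the range of the group, was above Dixon's 95% critical value, where chance gives about 1 in 20. Of these, 13 were in Olig1-Cre livers, and 11 of the 13 were liver 2, the male. Its values were 9.22 for Asl, 9.74 for Axl, 5.07 for Birc5, 11.96 for Gsta2, 8.42 for H2-Aa, 9.18 for H2-Eb1, 9.43 for Hba-a1, 11.09 for Hsd3b5, 7.37 for Ifit2, 5.10 for Mag and 9.77 for Spon2. All but Hba-a1 and Hsd3b5 lay on the side of the controls without reaching them, Hba-a1 lay on the far side of its group from the controls, and Hsd3b5 lay within the range of the controls. The other flagged Olig1-Cre values were 5.33 for Krt7 in liver 1 and 8.81 for Onecut2 in liver 4.

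In the controls, liver 1, the male, stood apart for F7 (9.30), Sdf2l1 (8.11) and Tff3 (6.07). Liver 2 did so for Cd63 (6.35) and Cyp2c23 (11.41), liver 3 for Cdc20 (4.69), Krt7 (5.26) and Slc1a4 (5.78), and liver 4 for Abcb11 (10.30), Birc5 (4.82), Lyve1 (7.08) and Mx2 (5.64). In the Alb-Cre livers, liver 2 stood apart for Alb (4.44), Atp1b1 (11.02) and Psmb5 (8.41), liver 3 for Mup6 (8.14), and liver 4 for Cyp2c39 (6.37), Glul (5.32) and Pck1 (8.08).

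Named genes whose levels differed between the 2 kinds of Cre livers by limma's test of that difference were Cyp2c39 (3.43), Gstk1 (1.96), Dennd2a (1.66), Atp1b1 (-1.39), Hspa1a (-1.47), Ddit4 (-1.51), Cachd1 (-1.58) and Psmc3ip (-1.80), each as Olig1-Cre minus Alb-Cre on the log2 scale.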

How the results depend on the processing

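The count of 2273 called genes (1366 higher, 907 lower) moved by over 1.5 times in these settings. Scaling to 1 median over all probes left 38 lower, scaling over the probes detected on all arrays left 705 higher, and females alone gave 1430 lower. Without a filter 1344 genes were called (858 higher, 486 lower). Chip 1 alone gave 16 (16 and 0) and chip 2 alone 1232 (767 and 465), each with 2 livers a group. Controls of the Olig1-Cre line alone gave 732 (493 and 239) and those of the Alb-Cre line 1200 (772 and 428). A t-test after Benjamini-Hochberg gave 1154 (768 and 386), against 3680 at an unadjusted p under 0.05. For array data the methods name a t-test only for the signature of Atg7 knockout livers, without this adjustment. Without single livers the count ran from 1088 to 3144, with 763 to 1801 higher and 325 to 1343 lower. The lowest, 1088 and 1140, came without Olig1-Cre livers 3 and 1, then 1294 without control 3, 1468 without Olig1-Cre liver 4 and 1517 without control 2. Of the 2273 genes, 203 changed sign when scaled over all probes, 61 when scaled over detected probes, 61 without a filter, 12 with the brightest probe and 1 with a stricter detection p. These genes were chosen on the same livers, so a kept sign is no sign of stability. The 14 genes called near Olig1 became 8 (scaled over detected probes), 8 (no filter), 1 (chip 1), 7 (chip 2), 7 and 7 (controls of one line) and 6 (the t-test), and 9 to 19 without single livers. The Atg7 difference of -0.22 was -0.77 when scaled over detected probes (exact p = 0.0286), 0.13 on chip 2 and 0.16 with controls of the Alb-Cre line, and ran from -0.35 to 0.14 without single livers. The 17 genes called against Alb-Cre livers became 201 with sex as a covariate and 8 with chip as a block, and 3 to 29 without single livers. The cause was not tested for any of these, except that fewer livers entered the fits on 1 chip, 1 sex or 1 line.

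Some genes that were not called changed sign. Scaled over all probes, Hnf4a was at 0.17, Krt7 at 0.092, Olig1 at 0.59, Pecam1 at 0.38 and Yap1 at 0.31, and scaled over detected probes Krt19 was at -0.53. Krt7 was at 0.40 on chip 1 and 0.15 with controls of the Olig1-Cre line, and Olig1 at 0.12 in females and 0.032 with those controls. Without single livers Krt7 reached 0.052, 0.065, 0.064 and 0.17, and Olig1 ran from -0.27 to 0.24. No paired analysis was possible because the labels give no replicate numbers. The number of arrays, and signals near background such as that of Atg7, limit what can be seen.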

Other observations

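H2-Ea, an MHC class II gene that some mouse strains lack, was not called, and its signals fell into separate levels within groups. It was at 7.42 in Olig1-Cre liver 2, 6.63 and 7.10 in controls 2 and 4 of the Olig1-Cre line and 4.76 in Alb-Cre liver 3, and in the other 8 livers it was at 4.16 to 4.25. The values are given as they stand, since the labels do not state the strain background of each mouse.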
